A study of Mus musculus with 6 samples.

Results

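The matrix metalloproteinases (MMPs), the ADAMTS proteases and the tissue inhibitors of metalloproteinases (TIMPs) were examined in whole mouse skin. Members were the rows of the deposited count table whose gene is protein-coding and whose symbol is Mmp, Timp or Adamts followed directly by a number. This gave 44 of the 55487 genes in the table, namely 22 Mmp, 4 Timp and 18 Adamts genes. The rule itself refers to names and not to measured values.

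Polyadenylated RNA was sequenced from dorsal skin in 6 libraries, all from day 2 and all from skin given DPCP (diphencyprone), a hapten that causes contact allergy. In 3 libraries DPCP was combined with clodrosome (Codrosome in the sample titles), a liposome preparation of clodronate, which is toxic to phagocytes that engulf it. In the other 3 it was combined with encapsome, the same kind of liposome without the drug, which serves as the control. The labels give no strain, sex, age, dose or route, and no skin without DPCP was part of the comparison. They also do not say that libraries came from separate mice, so p-values here measure the spread between libraries, which may be technical. The letters A, B and C name the libraries of each group and do not pair a clodrosome with an encapsome library.

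MMPs are zinc-dependent enzymes made as inactive proenzymes, and once activated they cut collagens, elastin, proteoglycans and many cell-surface and signalling proteins. ADAMTS proteases are secreted relatives that trim large proteoglycans, process procollagens and act on microfibrils. TIMPs bind the active site of MMPs and block it, and Timp3 also blocks several ADAMTS enzymes. In inflamed skin, macrophages, neutrophils, fibroblasts and keratinocytes are each known sources of different members, and they loosen matrix for cell migration and repair.

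The deposited counts summed to 116965654 in clodrosome library A and to between 26649396 and 35566351 in the other 5 libraries. The share of counts in ribosomal RNA genes was between 0.334% and 0.481% in encapsome A and in clodrosome A and C, and between 0.788% and 0.845% in clodrosome B and in encapsome B and C. The labels name no batch. Levels below are CPM, counts scaled to a common normalised library total, or RPKM, which further divides by the gene's exon length in kilobases and is the scale used to compare genes with each other. A gene was called when edgeR's quasi-likelihood test gave a Benjamini-Hochberg adjusted p under 0.05 over all 17988 genes tested. Log2 fold changes are clodrosome over encapsome and are given ± SE, and means are given ± SD with 3 libraries a group.

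Of the 44 members, 39 had enough counts to be tested and 16 were called. 14 of them were lower in clodrosome skin and 2 were higher. Over all genes tested, 22.4% were called, 13% lower and 9.41% higher. The called-lower members were 7 Mmp genes, 5 Adamts genes, Timp1 and Timp2, and the called-higher members were Mmp10 and Timp3. The groups did not overlap for 17 members that were lower and 4 that were higher in every clodrosome library, against 20.7% and 19.5% of all genes tested. The median log2 fold change was -0.43 over the 39 tested members and 0.01 over all genes tested. In bulk skin, fewer cells of a type and less RNA per cell cannot be told apart, and this holds for every value below.

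**Figure D1:**
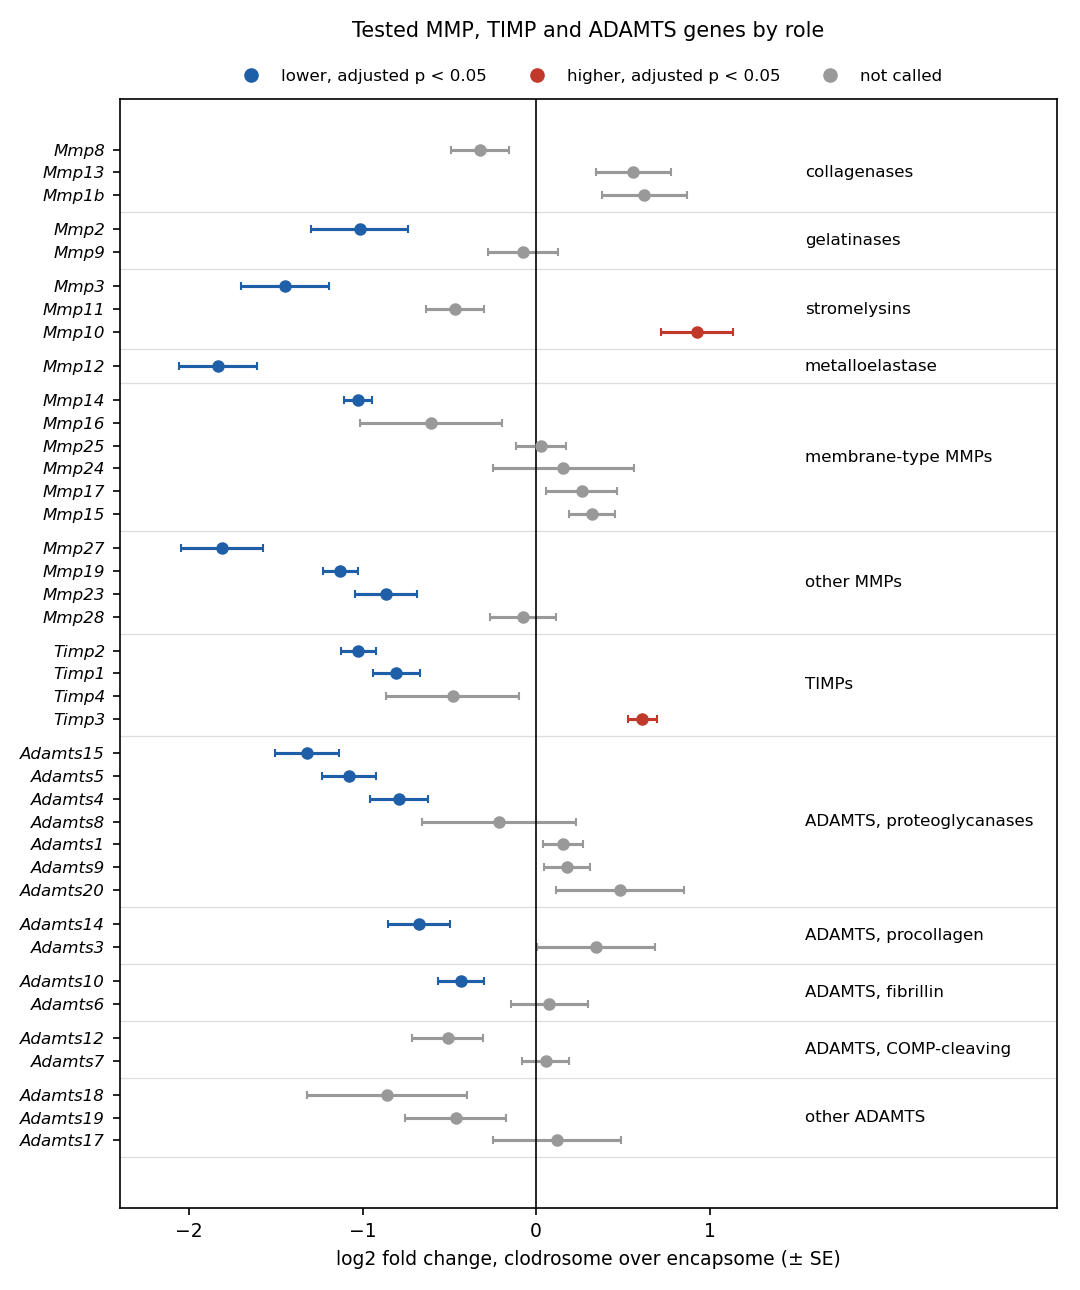
Log2 fold change of each of the 39 tested members, clodrosome over encapsome, with SE bars, arranged by role. Blue points are the 14 called lower, red points the 2 called higher and grey points the 23 not called; Mmp12 at -1.83 and Mmp10 at 0.93 are the ends of the range.

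Cell type markers were read in the same fit, and most or all of those of macrophages, fibroblasts and mast cells were lower in clodrosome skin. All 7 macrophage markers were lower, with a summed level of between 448 and 1126 CPM in clodrosome and between 2886 and 3357 CPM in encapsome libraries. All 6 fibroblast markers were lower, at between 1149 and 2032 CPM against between 3660 and 4140 CPM. Clodrosome B had the lowest sum of both lists. It was also the lowest clodrosome library for 11 of the 14 lower members. That count was not made over all genes called lower, so it does not set the members apart. For mast cells 4 of 5 markers were lower, at between 188.5 and 258 CPM against between 377 and 445 CPM. Keratinocyte markers gave 2 lower and 3 higher of 6 (22180 to 22690 against 15410 to 19150 CPM), neutrophil markers 2 higher of 6 (1381 to 1945 against 984 to 1585 CPM), endothelial markers 4 higher of 5 and skeletal muscle markers 3 higher of 5. The keratinocyte sums were mostly Krt14 and Krt5, and the neutrophil sums mostly S100a9 and S100a8. Of these, Krt14, S100a9 and S100a8 were not called. Smooth muscle and pericyte markers gave 1 higher of 4 and adipocyte markers 1 lower of 4. None of the 5 T cell or 3 Schwann cell markers was called. The part of these cell types in the members' results was not tested. None of the macrophage or fibroblast markers was at 0. Within the libraries of low ribosomal RNA share (clodrosome A and C, encapsome A) and within those of high share (clodrosome B, encapsome B and C), a split made after seeing the data, 1 of the 2 arms is a lone library and no test was made. The sign was fixed beforehand, since the groups of the called members do not overlap. The log2 ratio of mean CPM in the low and the high class was -1.37 and -2.54 for Mmp12, -0.99 and -1.10 for Mmp14, 1.04 and 1.17 for Mmp10 and 0.45 and 0.72 for Timp3.

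9 of the Mmp genes lie side by side on chromosome 9, within 427.1 kb at chr9:7272514-7699585 (GRCm38). In this cluster 3 genes were lower in clodrosome skin, 1 was higher, 3 were not called and 2 had too few counts to test. The lower genes were Mmp12, Mmp3 and Mmp27. Mmp10 begins 46.4 kb beyond the end of Mmp3, and these 2 stromelysins, which share a wide range of substrates, had log2 fold changes of opposite sign, 0.93 for Mmp10 and -1.45 for Mmp3. Proximal promoters of several genes in the cluster are known for a TATA box and a binding motif of AP-1, the dimer of Fos and Jun proteins. The RefSeq sequence (GRCm38.p6) of the 110 bases just before the start of 4 genes of this cluster is printed here. Of these, Mmp3 and Mmp12 were called lower, Mmp10 was called higher and Mmp13 was not called. Capitals mark TGANTCA, the AP-1 motif, and TATAAA, searched on both strands. Mmp3 (chr9:7445712-7445821, + strand), Mmp10 (chr9:7502232-7502341, + strand), Mmp12 (chr9:7347264-7347373, + strand) and Mmp13 (chr9:7272404-7272513, + strand) read, 5′ to 3′:
Mmp3: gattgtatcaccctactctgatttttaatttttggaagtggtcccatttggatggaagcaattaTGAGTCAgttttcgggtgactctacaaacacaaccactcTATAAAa
Mmp10: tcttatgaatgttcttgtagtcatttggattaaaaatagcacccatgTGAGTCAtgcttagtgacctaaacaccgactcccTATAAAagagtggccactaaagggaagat
Mmp12: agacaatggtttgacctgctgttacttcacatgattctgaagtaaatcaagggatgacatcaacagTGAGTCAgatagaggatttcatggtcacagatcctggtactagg
Mmp13: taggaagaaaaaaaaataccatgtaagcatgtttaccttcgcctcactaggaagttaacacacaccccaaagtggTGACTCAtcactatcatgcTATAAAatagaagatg
Stretches were printed only from promoters that hold both motifs, so the presence of TGANTCA in all 4 was fixed by that choice. Its first base lies 46 bases before the start in Mmp3, 63 in Mmp10, 44 in Mmp12 and 35 in Mmp13. TATAAA lies between that motif and the start in Mmp3, Mmp10 and Mmp13, and just after the start in Mmp12, outside the printed bases. RefSeq promoter windows, each from 250 bases before to 50 bases after a start, were found for 30 of the 44 members. TGANTCA was in the windows of 7 of these 30, all of them genes of the chromosome 9 cluster (Mmp3, Mmp7, Mmp10, Mmp12, Mmp13, Mmp1b and Mmp20), and in 7.81% of the 32851 mouse windows. All 7 also held TATAAA, and both motifs together were in 1.54% of all windows. Among members with a window, TGANTCA was present in 2 of 8 that were called lower, in 1 of 2 called higher, in 2 of 16 not called and in 2 of 4 not tested. A match of letters is a description of the sequence, and binding was not measured.

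Mmp12, macrophage metalloelastase, cuts elastin and is known as a product of activated macrophages. Its level was 37.3, 25.2 and 52.0 CPM in clodrosome A, B and C and 115, 138 and 155 CPM in encapsome A, B and C. The lowest encapsome library was above the highest clodrosome library, and no other member fell further. The log2 fold change was -1.83 ± 0.22 (adjusted p = 0.0005945, edgeR), with means of 38.1 ± 13.4 and 136 ± 20.1 CPM. Mmp27 is a little-studied relative of the stromelysins. It was at 5.97, 2.76 and 4.84 CPM in the clodrosome libraries and at 18.7, 15.2 and 14.9 CPM in the encapsome libraries. Its groups were also well apart, and the log2 fold change was -1.81 ± 0.24 (adjusted p = 0.0008495, edgeR). Mmp8 ends 2.91 kb before the start of Mmp27 and was not called, so direct neighbours gave different results.

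Mmp3, stromelysin-1, degrades proteoglycans and basement membrane and activates other proMMPs. It had the highest RPKM of all members in both groups, 83.5 ± 36.9 in clodrosome and 228 ± 18.4 in encapsome skin. Its level was 224, 95.0 and 132 CPM in clodrosome A, B and C and 382, 447 and 404 CPM in encapsome A, B and C. Clodrosome B was the lowest library and clodrosome A the highest of its group, yet the groups did not overlap. The log2 fold change was -1.45 ± 0.26 (adjusted p = 0.003918, edgeR).

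Mmp10, stromelysin-2, is known from keratinocytes at wound edges and from macrophages. Its level was 19.1, 27.4 and 17.0 CPM in the clodrosome libraries and 8.78, 13.9 and 10.6 CPM in the encapsome libraries. Every clodrosome library was above every encapsome library, with clodrosome B the highest. The log2 fold change was 0.93 ± 0.21 (adjusted p = 0.0121, edgeR). With this, Mmp10 stood 9th among the 44 members by RPKM in clodrosome skin and 15th in encapsome skin.

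None of the 3 tested members grouped here as interstitial collagenases was called by edgeR. The group follows common naming and need not hold every MMP that cuts fibrillar collagen. In edgeR, 2 of them, Mmp13 and Mmp1b, had an unadjusted p under 0.05, and DESeq2 called 1, Mmp13. Mmp13, collagenase-3, was at 38.1, 60.1 and 67.2 CPM in clodrosome and at 28.4, 44.7 and 38.6 CPM in encapsome libraries, and the groups overlapped through clodrosome A. Its log2 fold change was 0.56 ± 0.22 (adjusted p = 0.0933, edgeR), and without clodrosome A it was 0.77 with an adjusted p of 0.0125. Mmp1b was at 1.61, 1.875 and 1.44 CPM against 1.001, 1.25 and 0.914 CPM, which did not overlap, with a log2 fold change of 0.62 ± 0.24 (adjusted p = 0.0973, edgeR). It lies on the opposite strand to Mmp12 and overlaps it, with 10.8% of its exonic bases shared, and reads there were assigned to neither gene. Mmp8, the neutrophil collagenase, was at 23.5, 31.3 and 27.0 CPM against 25.3, 37.7 and 38.9 CPM. Those ranges overlapped, and its log2 fold change was -0.32 ± 0.17 (adjusted p = 0.199, edgeR). Mmp7 (matrilysin) had 2 counts in clodrosome C and none elsewhere, and Mmp20 (enamelysin) had 2 counts in encapsome B and none elsewhere. A count of 0 allows up to 0.0502 CPM in clodrosome A and up to between 0.166 and 0.228 CPM in the other libraries, taking 3 fragments as 6 counts, for counting error only.

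**Figure D2:**
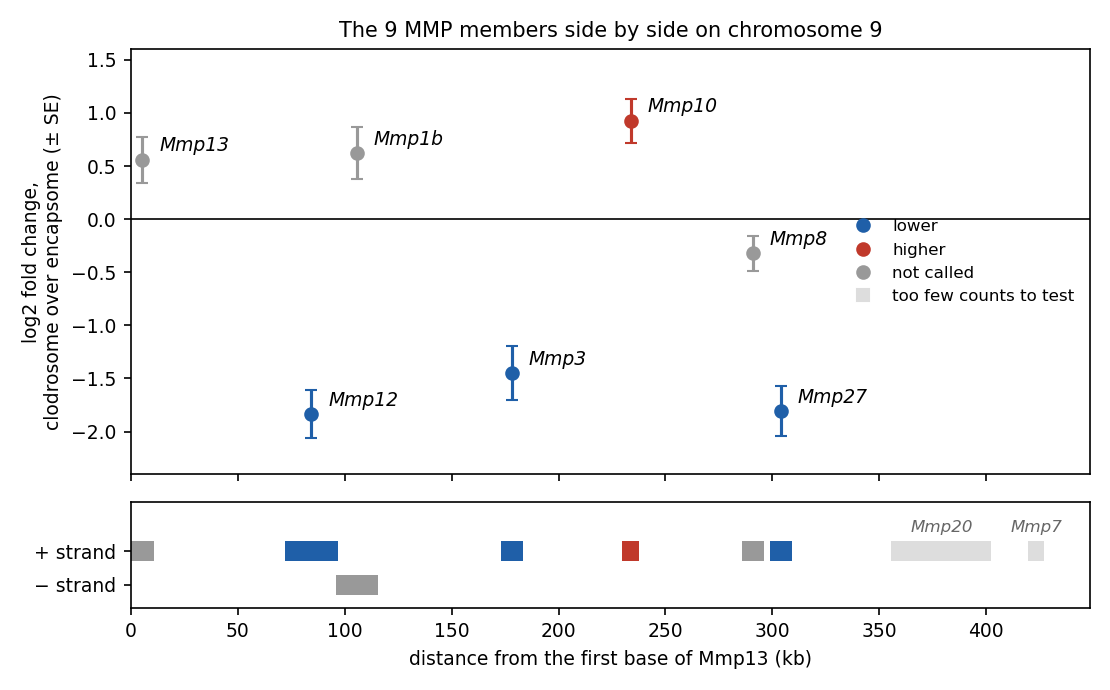
Upper panel, log2 fold change (± SE) of the tested Mmp genes of the chromosome 9 cluster at the position of each gene; lower panel, their spans and strands, as distance in kb from the first base of Mmp13. Mmp12, Mmp3 and Mmp27 lie between -1.83 and -1.45, Mmp10 lies at 0.93, and the 3 grey points were not called.

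Outside the cluster, 4 further Mmp genes were lower in clodrosome skin: Mmp14, Mmp2, Mmp19 and Mmp23. Mmp14, the membrane-bound enzyme that activates proMMP-2 at the cell surface, was at 118, 105 and 107 CPM in clodrosome and at 224, 238.5 and 212 CPM in encapsome libraries. Both groups were tight and far apart. Its log2 fold change of -1.03 ± 0.08 had the smallest adjusted p of the members, 9.72e-05 (edgeR). Mmp2, gelatinase A and the substrate of that activation, was at 184, 69.2 and 139 CPM against 289.7, 274 and 232.5 CPM. Clodrosome libraries ranged widely here and clodrosome B was the lowest, although the groups stayed apart. The log2 fold change was -1.02 ± 0.28 (adjusted p = 0.0297, edgeR), and the call was lost, with adjusted p between 0.0538 and 0.0891, when clodrosome C or any encapsome library was left out.

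Mmp19, an MMP of skin and vessels that is also made by macrophages, was at 42.7, 35.1 and 45.5 CPM in clodrosome and at 84.8, 89.6 and 95.7 CPM in encapsome libraries. The lowest encapsome library was well above the highest clodrosome library, and the log2 fold change was -1.13 ± 0.10 (adjusted p = 0.0001574, edgeR). Exons of Gm47093 and Tmem198b cover 28.3% of its exonic bases, and reads there gave it no counts. Mmp23, an MMP with a membrane anchor at its amino end, was at 7.06, 4.44 and 5.585 CPM against 10.8, 11.7 and 9.06 CPM. The groups did not overlap, and the log2 fold change was -0.87 ± 0.18 (adjusted p = 0.00889, edgeR).

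Mmp9, gelatinase B, which neutrophils store in granules and macrophages and keratinocytes also make, was not called. It was at 63.7, 95.0 and 61.3 CPM in clodrosome and at 60.6, 99.6 and 70.99 CPM in encapsome libraries. The B library was the highest of each group, the ranges overlapped almost fully, and the log2 fold change was -0.08 ± 0.20 (adjusted p = 0.829, edgeR). Mmp11, stromelysin-3, a fibroblast MMP of remodelling tissue, was at 13.6, 9.47 and 12.8 CPM against 19.9, 16.2 and 13.9 CPM. These values did not overlap, but the log2 fold change of -0.47 ± 0.17 did not pass (adjusted p = 0.0779, edgeR).

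Among the 6 membrane-type MMPs, Mmp14 was the called gene. Mmp15, a close relative of Mmp14 found in epithelia, was at 16.6, 21.8 and 16.8 CPM in clodrosome and at 16.3, 14.1 and 13.7 CPM in encapsome libraries. All 3 clodrosome values were above the encapsome values, the nearest by a small margin, and the log2 fold change was 0.32 ± 0.13 (adjusted p = 0.110, edgeR). Mmp25, the leukocyte enzyme known from neutrophils, was at 7.81 ± 0.85 and 7.64 ± 1.002 CPM, with a log2 fold change of 0.03 ± 0.15. Mmp16, Mmp17 and Mmp24 had means under 3 CPM in both groups and log2 fold changes of -0.61 ± 0.41, 0.26 ± 0.21 and 0.16 ± 0.41. Mmp28 (epilysin), an MMP of keratinocytes, was at 6.35 ± 1.63 and 6.64 ± 0.83 CPM, with a log2 fold change of -0.08 ± 0.19. Mmp21 had at most 4 counts in any library and was not tested.

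**Figure D3:**
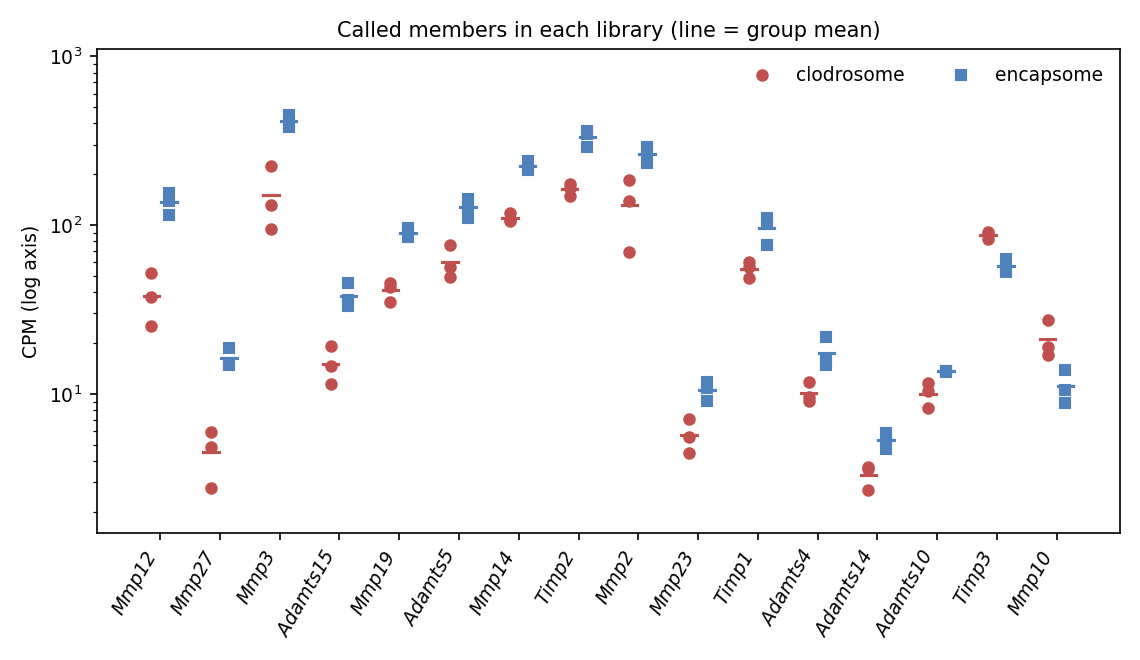
CPM (log axis) of the 16 called members in each of the 3 clodrosome libraries (circles) and 3 encapsome libraries (squares), with a line at each group mean, ordered by log2 fold change. In none of the 16 do the circles and squares overlap, and on this axis the widest spread within a group is that of Mmp2 and Mmp3 in clodrosome skin.

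The 4 TIMPs divided. Timp2, which inhibits MMPs and also helps Mmp14 to activate proMMP-2, was at 176, 148 and 167 CPM in clodrosome and at 359, 348 and 292 CPM in encapsome libraries. The groups were far apart, and the log2 fold change of -1.02 ± 0.10 (adjusted p = 0.000234, edgeR) was close to those of Mmp14 and Mmp2. Timp1, an inhibitor induced in inflammation, was at 60.4, 56.5 and 48.8 CPM against 76.3, 109 and 104 CPM. Encapsome A was the lowest of its group but still above clodrosome A, and the log2 fold change was -0.81 ± 0.14 (adjusted p = 0.003159, edgeR).

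Timp3, which is bound to the matrix and also blocks ADAM17 and several ADAMTS enzymes, was higher in clodrosome skin. It was at 82.5, 88.5 and 90.5 CPM in clodrosome and at 63.2, 52.75 and 54.9 CPM in encapsome libraries. The groups did not overlap, and the log2 fold change was 0.61 ± 0.09 (adjusted p = 0.00119, edgeR). Exons of Syn3, within which Timp3 lies, cover 21.3% of the exonic bases of Timp3. Syn3 had between 8 and 67 counts per library and was not called (adjusted p = 0.308, edgeR). Timp4, the least abundant TIMP, was at 2.17, 1.38 and 4.67 CPM against 3.29, 3.32 and 4.83 CPM. Clodrosome C was near the highest encapsome library, and the log2 fold change was -0.48 ± 0.38 (adjusted p = 0.416, edgeR); without clodrosome C it was -1.06 with an adjusted p of 0.0427.

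Of 16 tested Adamts genes, 5 were lower in clodrosome skin and 11 were not called. None was higher by edgeR, also at an unadjusted p under 0.05, or by DESeq2. The ADAMTS proteoglycanases, which cut versican, aggrecan and related proteoglycans, held 3 of the 5 lower genes. Adamts15 was at 19.2, 11.5 and 14.5 CPM in clodrosome and at 45.6, 35.75 and 32.9 CPM in encapsome libraries. The groups did not overlap, and the log2 fold change of -1.32 ± 0.18 (adjusted p = 0.00121, edgeR) was the lowest of the Adamts genes. Adamts5, aggrecanase-2, was at 75.9, 49.0 and 56.65 CPM against 130.3, 143.5 and 110.6 CPM. Its lowest encapsome library was above its highest clodrosome library, and the log2 fold change was -1.08 ± 0.16 (adjusted p = 0.00147, edgeR). Adamts4, aggrecanase-1 and an inflammation-induced enzyme, was at 9.05, 11.8 and 9.57 CPM against 14.9, 21.8 and 15.6 CPM. Here clodrosome B was the highest of its group, unlike for Adamts5, and the log2 fold change was -0.79 ± 0.17 (adjusted p = 0.00957, edgeR).

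Adamts1 lies next to Adamts5 on chromosome 16, and it cuts versican and is known from vessels and from ovulation. It had the highest RPKM of the Adamts genes in both groups, 29.0 ± 2.43 in clodrosome and 26.1 ± 4.01 in encapsome skin. In CPM it was at 167, 141 and 153.5 against 127, 163 and 125, ranges that overlapped through encapsome B. Its log2 fold change was 0.16 ± 0.11 (adjusted p = 0.369, edgeR). Adamts9, a versican-cutting enzyme of vessels and fibroblasts, was at 34.6, 35.2 and 36.0 CPM against 24.1, 34.2 and 35.3 CPM. Apart from encapsome A these values lay close together, and the log2 fold change was 0.18 ± 0.13 (adjusted p = 0.377, edgeR). Adamts20, known for its role in pigment cell migration in mouse skin, was at 1.15 ± 0.31 and 0.83 ± 0.40 CPM, and Adamts8 at 0.42 ± 0.14 and 0.51 ± 0.26 CPM. Neither was called.

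Adamts14, a procollagen N-proteinase that removes the amino propeptide of fibrillar procollagens, was at 3.61, 3.68 and 2.68 CPM in clodrosome and at 5.42, 5.82 and 4.72 CPM in encapsome libraries. The groups did not overlap, and the log2 fold change was -0.68 ± 0.18 (adjusted p = 0.0238, edgeR). The call was lost, with adjusted p between 0.0621 and 0.0893, without clodrosome C, encapsome A or encapsome B. Adamts3, its relative that also takes part in processing of VEGF-C, was at 0.513 ± 0.113 and 0.417 ± 0.041 CPM and was not called (log2 fold change 0.34 ± 0.34). Adamts10, which binds fibrillin and takes part in microfibril assembly, was at 11.5, 8.22 and 10.4 CPM against 13.75, 13.4 and 13.7 CPM. The encapsome libraries were nearly equal and all above the clodrosome libraries. The log2 fold change was -0.43 ± 0.13 (adjusted p = 0.0452, edgeR), and the call was lost without any 1 library other than clodrosome A, with adjusted p between 0.0693 and 0.119. Its relative Adamts6 was at 2.04 ± 0.34 and 1.93 ± 0.29 CPM and was not called.

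Adamts12, which cuts cartilage oligomeric matrix protein, was at 27.0, 15.6 and 29.1 CPM in clodrosome and at 39.3, 33.2 and 29.96 CPM in encapsome libraries. Clodrosome B was the lowest library, clodrosome C came close to encapsome C without reaching it, and the log2 fold change of -0.51 ± 0.20 did not pass (adjusted p = 0.106, edgeR). Adamts7, with the same substrate, was at 7.28 ± 0.95 and 7.04 ± 0.19 CPM (log2 fold change 0.06 ± 0.14). Adamts17, Adamts18 and Adamts19 had means under 3 CPM in both groups, log2 fold changes of 0.12 ± 0.37, -0.86 ± 0.46 and -0.46 ± 0.29, and were not called. Adamts13, the liver enzyme that cuts von Willebrand factor, had between 2 and 16 counts per library and Adamts16 between 2 and 43, the highest in both being the deepest library, and neither was tested.

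**Figure D4:**
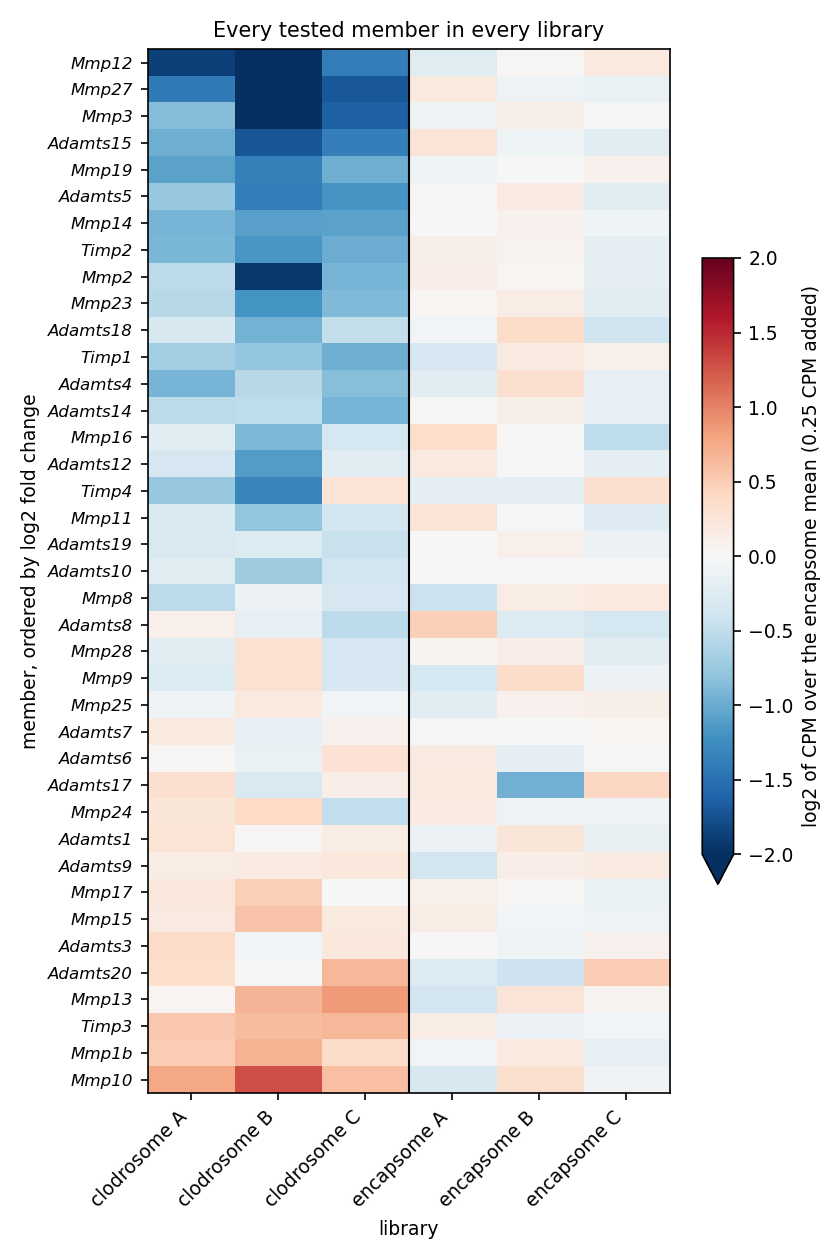
CPM of each of the 39 tested members in each library as log2 over that member's encapsome mean, with 0.25 CPM added; the colour scale ends at 2 in either direction and members are ordered by log2 fold change. The top rows are blue in all 3 clodrosome libraries and deepest in clodrosome B, the middle rows are pale, and Timp3, Mmp1b and Mmp10 are red in all 3.

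Summed over the family, the 22 Mmp genes were at 287, 199 and 233 RPKM in clodrosome and at 446, 507.5 and 456 RPKM in encapsome libraries, which do not overlap. Mmp3 alone made up 43.3%, 26.5% and 31.55% of the clodrosome sums and 47.5%, 48.9% and 49.1% of the encapsome sums. Mmp10 made up 3.86%, 8.01% and 4.24% against 1.14%, 1.59% and 1.35%, and Mmp13 4.96%, 11.3% and 10.8% against 2.38%, 3.30% and 3.16%. The shares of both were higher in every clodrosome library, while those of Mmp14 overlapped, at 7.84% ± 0.99 and 8.03% ± 0.33. These shares also move when Mmp3 moves, since they add up to the whole, and they were not tested.

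The 4 Timp genes summed to 124, 113 and 109.7 RPKM in clodrosome and to 186, 219.6 and 199.8 RPKM in encapsome libraries. The ratio of the Timp to the Mmp sum was 0.430, 0.567 and 0.471 in clodrosome and 0.418, 0.433 and 0.438 in encapsome libraries, ranges that overlapped through clodrosome A. It is a ratio of RNA levels and holds no measure of active enzyme. Timp3 was 9.32% ± 1.01 of the Timp sum in clodrosome and 3.50% ± 0.61 in encapsome skin. The 18 Adamts genes summed to 46.7 ± 4.75 and 55.2 ± 6.09 RPKM. These sums overlapped, with clodrosome A at 51.5 and encapsome C at 50.05 RPKM. Adamts1 made up 62.2% ± 1.14 of that sum in clodrosome and 47.1% ± 2.41 in encapsome skin, and Adamts5 11.9% ± 1.52 and 21.5% ± 1.02. A share also moves when other genes of its sum move, and Adamts1 itself was not called.

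**Figure D5:**
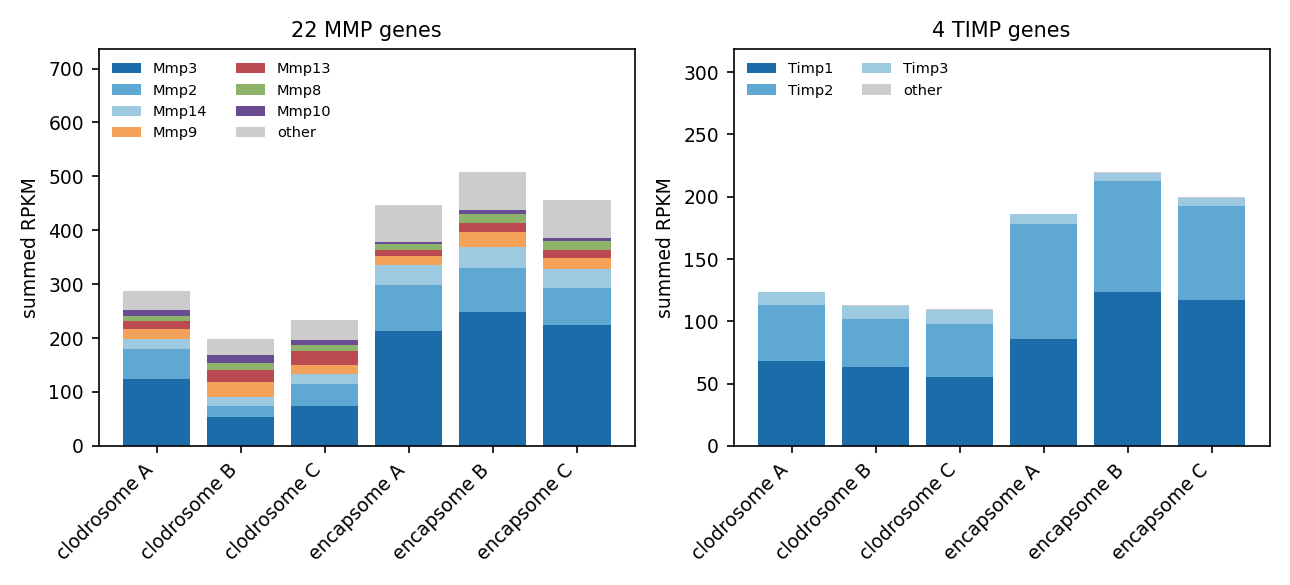
Summed RPKM of the 22 Mmp genes (left) and of the 4 Timp genes (right) in each library, stacked by gene. Encapsome bars reach 446 to 507.5 RPKM for Mmp and 186 to 219.6 RPKM for Timp, clodrosome bars 199 to 287 and 109.7 to 124, and Mmp3 is the largest segment of every Mmp bar.

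By RPKM, the order of the members differed little at the top. Mmp3, Timp1, Timp2 and Mmp2 took ranks 1 to 4 in both groups, with means of 83.5, 62.2, 42.0 and 38.8 RPKM in clodrosome and 228, 109, 85.5 and 78.7 RPKM in encapsome skin. The means of Timp2 and Mmp2 lay within their SDs of each other in both groups. Mmp14 was 5th in encapsome skin at 37.7 ± 2.22 RPKM and 8th in clodrosome skin at 18.5 ± 1.18 RPKM, behind Adamts1, Mmp9 (20.7 ± 5.31) and Mmp13 (20.6 ± 5.69). The spread of the last 2 exceeds their distance from Mmp14.

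Of the genes that act with the members, matrix substrates had the highest count of calls, and theirs was also the longest list. Of 16 tested, 11 were lower and 1 was higher, with a median log2 fold change of -0.62. The 4 lower genes with the smallest p were the fibrillar collagen chains Col1a1 (219 ± 46.5 against 816 ± 146 CPM), Col5a1 (57.9 ± 7.85 against 155 ± 26.5 CPM) and Col1a2 (316 ± 76.1 against 966 ± 169 CPM), and Eln, elastin, the substrate of Mmp12, at 32.4 ± 6.96 against 82.45 ± 12.2 CPM. Their log2 fold changes were -1.90, -1.42, -1.61 and -1.35, with adjusted p of at most 0.000512 (edgeR). Col3a1, fibrillin genes and fibronectin were among the other lower substrates.

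Of 11 tested genes on a list of activators and activating proteases, 4 were lower and 7 were not called, with a median of -0.40. The list is wider than direct activators of proMMPs and includes the plasminogen activators. The lower genes were Pcsk5 (-1.30 ± 0.18) and Furin (-0.33 ± 0.08), proprotein convertases, and the mast cell proteases Cma1 (-0.84 ± 0.12) and Tpsb2 (-0.67 ± 0.14). Cma1 and Tpsb2 are also 2 of the 5 mast cell markers. Furin had an adjusted p of 0.0201 (edgeR). Its call was lost without clodrosome A, clodrosome C or encapsome B, with adjusted p between 0.0546 and 0.0869 (edgeR). Plasminogen (Plg), made in liver, had too few counts to test. The plasminogen activators Plau (65.1 ± 12.5 against 86.1 ± 8.67 CPM) and Plat (27.0 ± 6.37 against 38.4 ± 5.77 CPM) were not called, with adjusted p of 0.0649 and 0.0566 (edgeR).

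Of 8 tested other inhibitors and clearance genes, 2 were lower and 6 were not called, with a median of -0.18. Lrp1, the endocytic receptor that clears MMPs, ADAMTS enzymes and TIMPs from the matrix, was at 347, 247.5 and 289.7 CPM in clodrosome and at 794, 723.5 and 695 CPM in encapsome libraries. The groups were far apart, and its log2 fold change was -1.32 ± 0.12 (adjusted p = 0.000181, edgeR). Spock1, a proteoglycan that modulates proteases, was at 0.25 ± 0.046 against 0.877 ± 0.055 CPM. Its log2 fold change was -1.76 ± 0.33 (adjusted p = 0.00486, edgeR). This value rests on few counts, since its 0.197 CPM in clodrosome B is the level of 6 counts there. Reck, the membrane-anchored MMP inhibitor, was at 14.0 ± 1.47 against 17.3 ± 0.91 CPM and was not called (adjusted p = 0.0753, edgeR).

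Of 10 tested ADAM and astacin proteases, which are related metalloproteinases, 6 were lower and 1 was higher, with a median of -0.38. Adam12, a membrane protease of activated stromal cells, was at 12.6, 9.37 and 12.9 CPM in clodrosome and at 38.55, 37.7 and 33.3 CPM in encapsome libraries. Its groups were far apart, with a log2 fold change of -1.65 ± 0.13 (adjusted p = 9.6e-05, edgeR). Adam15 (-0.57 ± 0.08), Adam9 (-0.71 ± 0.12) and Bmp1 (-0.77 ± 0.13), the procollagen C-proteinase, were also lower. Tll1, a relative of Bmp1 named after its value was seen, was the higher gene, at 9.60 ± 0.67 against 6.38 ± 0.67 CPM (log2 fold change 0.58 ± 0.13). Adam17, the sheddase that Timp3 inhibits, was at 151.9 ± 9.63 and 151.7 ± 7.12 CPM and was not called.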

How the data were processed

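The deposited table holds raw read counts per gene, which the authors made with featureCounts 1.6.2 from the GRCm38 genes of Ensembl 102, per the file headers. The submitters' processing notes also name Trimmomatic 0.36, HISAT2 2.2.1, StringTie 2.2.1 and DESeq2 1.34.0. The command in the header sets no paired-end or strand option. Each read end was thus counted by itself, strand was ignored although the kit is stranded, and bases shared between genes gave no counts. Of counts from 1 to 20, 63.6% to 69.7% per library were even, so counts are above the number of fragments and RPKM is a relative scale.

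Columns were matched to groups by name, with 0 further columns of sample values. Symbols were found for 55227 gene identifiers (99.5%) in GENCODE and name tables. Mmp1a, annotated there as a polymorphic pseudogene, and ADAMTS-like genes were not members, and 1 further Adamts gene and 1 gene of a pathway list are not reported here. Members, gene lists and tests were chosen with earlier results of these data known.

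Genes were tested with edgeR 4.0.16 in R 4.3.3 (TMM factors 0.982 to 1.02, filterByExpr with minimum count 10 and minimum total 15, glmQLFit and glmQLFTest with group as the only term) and adjusted by Benjamini-Hochberg over 17988 genes. The biological coefficient of variation was 0.126. The SE is the log2 fold change over the square root of F. The procedure was also run on simulated counts with known fold changes, which checks the code and does not bear on the calls in these libraries. Within groups, pairs of libraries differed by a chi-square of 9.93 to 53.0 per gene, so none looked like a repeat deposit.

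All called members are named, the others where their mean is at least 1 CPM or their subfamily is described, and of each pathway list the called genes, up to 4 by smallest p. Genes outside this rule were named after their values were seen. They are Plg, Plau, Plat, Reck, Adam17, Tll1, Col3a1, Syn3, Krt14, Krt5, S100a9, S100a8 and the fibrillin and fibronectin genes. Promoter windows are those of RefSeq for GRCm38.p6. For Mmp12 the stretch belongs to the second of its 2 starts there, the one whose window holds both motifs. Alternatives were DESeq2 1.42.0, RLE factors, no filter, each library left out, clodrosome A thinned to 31566284 counts, a fold of at least 1.5 and, chosen after seeing the data, the ribosomal RNA split at 0.6% as a model term.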

Additional observations from a re-analysis of the deposited data

How the results depend on the processing

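The number of members called lower was 14, and 11 to 14 with 1 library left out, 14 with RLE factors, 17 without a filter, 16 with the ribosomal RNA split, 13 with clodrosome A thinned, 16 with DESeq2 and 13 at a fold of at least 1.5. The number called higher was 2, or 3 without a filter, without clodrosome A, with the split and with DESeq2. The fit without a filter gave far smaller adjusted p for well-counted members, such as 1.13e-75 for Mmp12 and 1.24e-23 for Mmp2 (edgeR). In the main fit these were 0.0005945 and 0.0297 (edgeR), so calls kept without a filter are a weak check. Of the 16 called members, 13 kept call and direction under all 11 alternatives run on each gene, and none changed direction. The exceptions were Mmp2 (-1.35 to -0.71 with 1 library left out, lost in 4 of these), Adamts14 (-0.75 to -0.55, lost in 3) and Adamts10 (-0.55 to -0.31, lost in 5, and with clodrosome A thinned, adjusted p = 0.0655, edgeR). The causes were not tested.

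Of the 23 uncalled members, 5 were called under some alternative: Mmp13, Mmp11, Adamts12, Mmp8 and Timp4. For 8 uncalled members the sign changed with 1 library left out, with ranges of -0.55 to 0.285 for Adamts8, -0.29 to 0.0367 for Mmp28, -0.30 to 0.15 for Mmp9, -0.0798 to 0.0887 for Mmp25, -0.0351 to 0.15 for Adamts7, -0.0515 to 0.19 for Adamts6, -0.24 to 0.41 for Adamts17 and -0.0222 to 0.43 for Mmp24. With the split as a term, Mmp9 was at 0.10, Adamts17 at -0.0672 and Adamts6 at -0.0362. No paired analysis was possible because the column names do not carry the replicate numbers of the sample titles. The SE was largest, between 0.37 and 0.46, for Mmp16, Mmp24, Timp4, Adamts8, Adamts17, Adamts18 and Adamts20, none of which was called. The 5 untested members had at most 43 counts in any library.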
